A study of Mus musculus with 4 samples.

Results

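Cycling plasmablasts were defined as cells that combined a high level of *Jchain*, which encodes the joining chain of secreted antibody, with transcripts of the proliferation genes *Mki67* (the Ki-67 antigen) or *Top2a* (a topoisomerase that untangles replicated DNA). Barcodes of both mRNA libraries were kept when they held 100 to 5500 genes and under 10% mitochondrial UMIs, with or without a hashtag. A UMI, or unique molecular identifier, stands for 1 captured transcript. A cycling plasmablast held at least 100 *Jchain* UMIs per 10000 UMIs of the cell (CP10K) and at least 2 UMIs of *Mki67* and *Top2a* together. This rule found 1999 cells among 28550 kept barcodes, 1467 of 23467 in the CD45.2+ library and 532 of 5083 in the CD45.1+ library. Because the rule was read from *Jchain*, *Mki67* and *Top2a*, the values of these 3 genes are descriptions and no test is drawn from them.

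The cells were sorted from the spleens of 6 CD45.1+ WT recipient mice on day 8 after immunization with sheep red blood cells coupled to hen egg lysozyme (HEL). Mice were 8 to 12 weeks old and of both sexes. Each recipient had been given a mixture of MD4 B cells, which carry a transgenic immunoglobulin against HEL. In all 6 recipients the CD45.1+ part of this mixture was *Dock8* wt/wt and had no BCL2 transgene, whether the mouse belonged to the WT group (3 mice) or to the DOCK8-deficient group (3 mice). Their CD45.2+ partners all carried BCL2.Tg, a BCL2 transgene restricted to B cells, and were *Dock8* wt/wt in the WT group and *Dock8* cpm/cpm, an ENU-induced null allele, in the DOCK8-deficient group. B cells were enriched on magnetic columns, stained with 1 hashtag antibody per mouse, and sorted as HEL-binding CD95+ cells by allotype. Each sort gave 1 mRNA and 1 hashtag library that pooled the 6 mice, so allotype, BCL2.Tg, sort and library cannot be told apart. The CD45.1+ label of the recipients is also that of the control cells.

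Plasmablasts are the dividing stage between activated B cells and resting plasma cells. The factors BLIMP1 (*Prdm1*), IRF4 and XBP1 install the secretory program, in which the endoplasmic reticulum (ER) expands to fold and export antibody, while the B cell factor *Pax5* and the germinal center factor *Bcl6* are shut down. In a dividing cell, genes of DNA replication and nucleotide supply come first, followed by the histones and then by the genes of mitosis.

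Hashtags split the cycling plasmablasts before any mouse could be compared. Of the CD45.2+ cycling plasmablasts, 402 (27.4%) carried the hashtag of a single mouse, 761 (51.9%) carried more than 1 hashtag and 304 (20.7%) had no hashtag counts. Of the CD45.1+ cycling plasmablasts, 225 (42.3%) were hashtag singlets, 287 (53.9%) were hashtag doublets and 20 (3.76%) had no hashtag counts. Doublets made up 33.9% and 30.5% of all kept barcodes of the CD45.2+ and CD45.1+ libraries, a smaller share than among cycling plasmablasts. Doublets also held more RNA, with medians of 15893 and 15708 UMIs per cell against 10501 and 12149 in singlet cycling plasmablasts. The B cell identity list (13 genes, *Pax5* and *Ms4a1* among them) summed to 7030 CPM in CD45.2+ doublets and 4759 CPM in CD45.2+ singlets, and to 2489 and 1662 CPM in the CD45.1+ library. CPM here means UMIs of a gene per 1000000 UMIs outside the 393 genes of immunoglobulin and *Jchain*. The ER folding list summed to 14790 CPM in CD45.2+ doublets and to 26089 CPM in singlets, and to 32290 and 34104 CPM in the CD45.1+ library. All values by mouse below come from hashtag singlets, and the part of doublets in the pooled values was not tested. The 2 libraries shared 38 barcodes, of which 3 were cycling plasmablasts in 1 library and none was one in both.

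The mouse labels carried a second limit. In CD45.2+ cycling *Jchain*-low cells, which are numerous enough for each mouse, the X-linked *Xist* had levels of 1421, 1610 and 1384 CPM under WT labels but 382, 708 and 538 CPM under DOCK8-deficient labels. For the Y-linked *Ddx3y* the levels were 1.57, 1.29 and 2.56 CPM under WT labels and 67.4, 40.1 and 38.7 CPM under DOCK8-deficient labels. The groups did not overlap in either gene. The study's notes give the WT cells a male and the *Dock8* cpm/cpm cells a female origin, which these transcripts go against. Groups are therefore called by their labels here. Sex-linked transcripts move with the group label in CD45.2+ cells, and sex cannot be told apart from *Dock8*. Under DOCK8-deficient labels the sums of 18, 14 and 34 cells held both *Xist* and *Ddx3y*. Whether these singlets mix cells of more than 1 origin was not tested. In CD45.1+ cycling plasmablasts *Xist* lay between 1075 and 1419 CPM in all 6 mice and *Ddx3y* was at 0. *Dock8* itself was at 70.6, 78.3 and 49.8 CPM among CD45.2+ cycling plasmablasts with WT labels. Only 4 CD45.2+ cycling plasmablasts had a hashtag of a mouse labelled DOCK8-deficient, with *Dock8* at 168, 0 and 99.7 CPM. In CD45.2+ cycling *Jchain*-low cells *Dock8* was at 101, 117 and 96.8 CPM under WT labels and at 172, 93.5 and 96.7 CPM under DOCK8-deficient labels, which overlapped, so the transcript did not check the labels.

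Members lay on a continuum next to the rule's limits. In the CD45.2+ library 104 cycling plasmablasts had 100 to 120 CP10K of *Jchain*, and 93 cells with enough cycle UMIs lay between 80 and 100 CP10K. The counts in the CD45.1+ library were 28 and 24. Exactly 2 cycle UMIs were found in 506 and 129 cycling plasmablasts, while 940 and 284 *Jchain*-high cells had 1 cycle UMI and belonged to neither class. Median *Jchain* was 258 CP10K in CD45.2+ and 255 CP10K in CD45.1+ cycling plasmablasts, against 9.004 and 5.33 CP10K over all kept cells. Cycling plasmablasts held 20436116 and 7810139 UMIs in all, with medians of 12762 and 13861 UMIs and 2749 and 2598 genes per cell. They were deeper than non-cycling *Jchain*-high cells, which had no cycle UMI and medians of 8144 and 9395 UMIs. The part of this depth in the comparisons was not tested, apart from the thinned values below.

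The other markers given for the class are *Hsp90b1*, *Creld2* and *Rrm2*. *Hsp90b1* and *Creld2* lay above the pool of all other kept cells, but neither differed by 2-fold in both libraries from non-cycling *Jchain*-high cells. *Hsp90b1* (chr10:86690209-86705509, minus strand, GRCm38), which encodes the ER chaperone GRP94, was among the 15 leading genes that set cycling plasmablasts above all other kept cells, at 5010 against 896 CPM in the CD45.2+ and 11220 against 2714 CPM in the CD45.1+ library. *Creld2* (chr15:88819646-88826683, plus strand), an ER protein induced with the chaperones, stood at 607 against 111 CPM and at 1144 against 293 CPM. The 15 leading genes also held others of the secretory route: *Lman1*, a cargo receptor between ER and Golgi, *Ssr2* of the translocon, *Spcs1* of the signal peptidase, *Xbp1*, and the chaperone-associated *Manf* and *Sdf2l1*. *Sdc1*, the plasma cell surface proteoglycan CD138, stood at 149 against 21.6 CPM and at 229 against 57.4 CPM. *Tnfrsf17*, the survival receptor BCMA, stood at 170 against 18.3 CPM and at 322 against 87.2 CPM. *Rrm2* (chr12:24708241-24714146, plus strand), the regulated subunit of ribonucleotide reductase, was not among the 15 leading genes, and cycling *Jchain*-low cells held 171 and 255 CPM of it against 119 and 292 CPM in cycling plasmablasts. Marker lists of other lineages were low. The 7 T cell markers summed to 26.2 and 13.1 CPM with *Lck* the most abundant and 0 of the 7 at 0. The 4 NK cell markers summed to 0.549 and 5.38 CPM, led by *Nkg7* and *Gzma*, with 2 and 1 of the 4 at 0. The 4 erythroid markers summed to 2.33 and 0.960 CPM, led by *Hbb-bs*, with 1 and 2 of the 4 at 0. The 6 myeloid markers summed to 665 and 609 CPM, nearly all of it *Cst3* (656 and 604 CPM, and 239 and 246 CPM in cycling *Jchain*-low cells), with 2 and 3 of the 6 genes at 0. The part of other cells in the results was not tested.

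**Figure D1:**
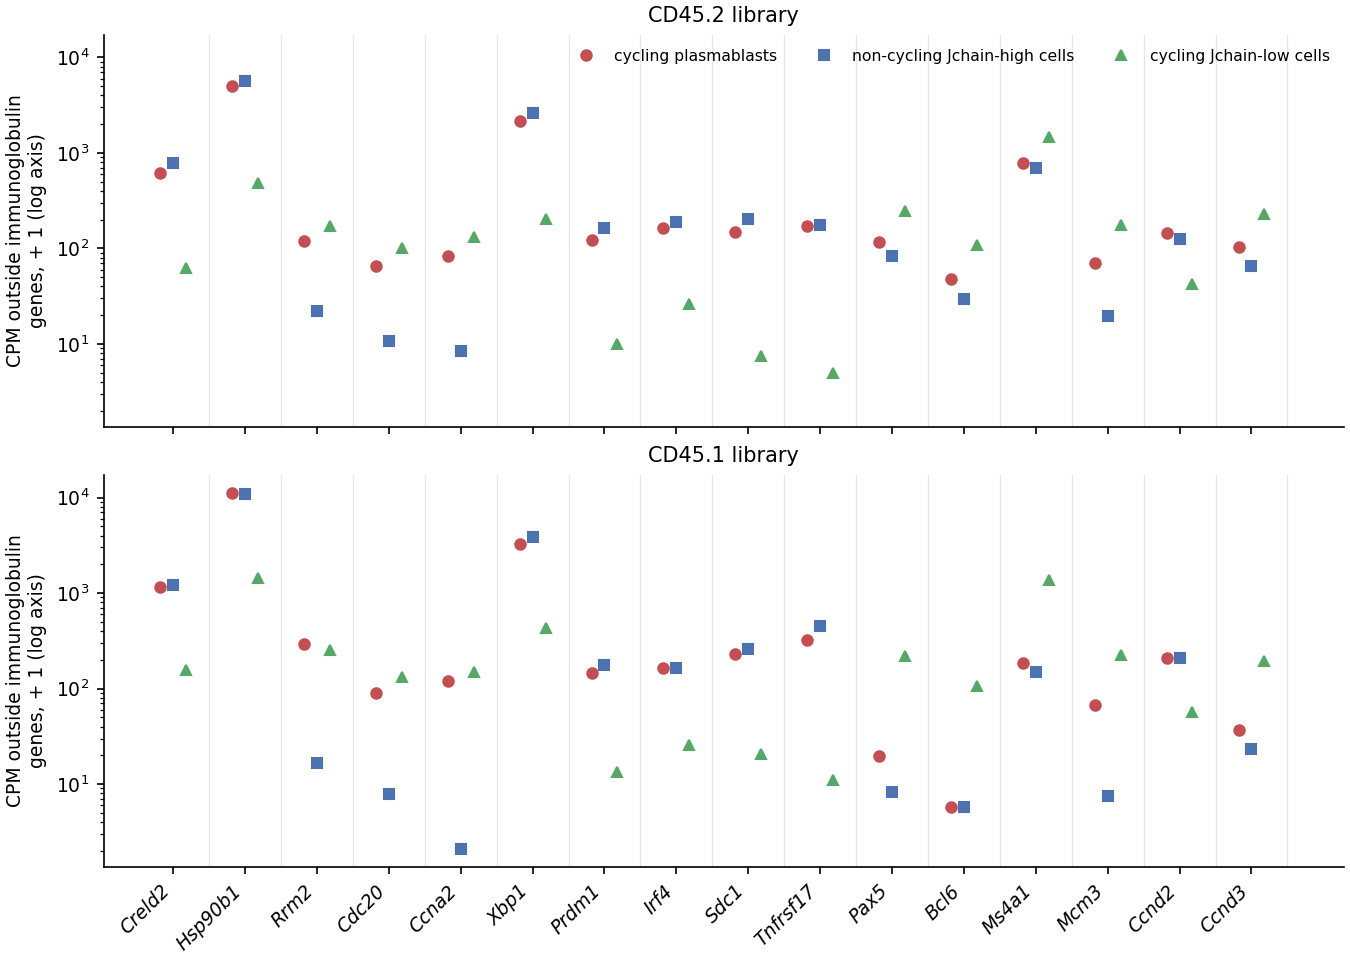
Levels of 16 genes in 3 classes of cells, as CPM outside immunoglobulin genes plus 1 on a log axis, for the CD45.2+ library (top) and the CD45.1+ library (bottom). Each point pools the cells of 1 class, without an error. Cycling plasmablasts (circles) sit with non-cycling *Jchain*-high cells (squares) for *Hsp90b1*, *Xbp1*, *Prdm1* and *Sdc1*. They sit near cycling *Jchain*-low cells (triangles) for *Rrm2*, *Cdc20* and *Ccna2* but below them for *Mcm3*. Of the whole replication list, 12 of 25 genes were lower by 2-fold than in cycling *Jchain*-low cells in both libraries.

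Cycling plasmablasts were set beside the 2 classes that share one part of their definition each. Against non-cycling *Jchain*-high cells, 183 of 6983 genes (2.62%) were higher by 2-fold in both libraries and 4 (0.0573%) were lower, with a pseudocount of 10 CPM. There was 1 library per sort, so these folds describe the libraries and carry no test. The listed genes on the higher side all belonged to the cell cycle, which the rule itself draws on. All 28 genes of the mitosis list were higher, with *Ube2c*, which charges the anaphase-promoting complex with ubiquitin, at 238 against 17.4 CPM and at 408 against 9.82 CPM. *Cdc20*, the activator of that complex, stood at 64.6 against 9.63 CPM and at 88.9 against 6.91 CPM. Of 25 replication genes 20 were higher, *Rrm2* at 119 against 21.3 CPM and at 292 against 15.6 CPM, and 10 of 13 tested histone genes. Cyclins and regulators gave 3 of 18 tested, *Ccne2*, *E2f8* and *Foxm1*.

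The secretory genes were set between cycling and non-cycling *Jchain*-high cells in the same way. None of the plasma cell regulators, plasma cell markers, ER folding, translocation or degradation genes (64 tested in all) differed by 2-fold in both libraries. Over all genes tested the shares were 2.62% higher and 0.0573% lower, so this count is near the share over all genes. *Prdm1* stood at 122 against 163 CPM in the CD45.2+ and at 143 against 175 CPM in the CD45.1+ library. *Xbp1* stood at 2150 against 2631 CPM and at 3274 against 3850 CPM. The medians of the ER folding list were log2 -0.34 and -0.10 beside 0.03 and 0.06 over all genes tested. Those of the plasma cell markers were -0.44 and -0.43, and those of the degradation list -0.38 and -0.37. Regulators had medians of -0.18 and -0.06, and translocation genes of -0.11 and -0.06. The marker and degradation medians stayed below 0 with singlets alone and with CPM over all UMIs. Immunoglobulin genes and *Jchain* took 28.7% and 33.3% of the UMIs of cycling plasmablasts and 37.7% and 43.2% of those of non-cycling *Jchain*-high cells. The 4 lower genes were *Gm8369*, *Prg2*, *Apoe* (1224 against 2797 CPM and 96.2 against 431 CPM), a lipid carrier, and *Plac8*. With CPM over all UMIs the split was 169 higher and 1 lower.

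Against cycling *Jchain*-low cells, 395 of 7607 genes (5.19%) were higher by 2-fold in both libraries and 69 (0.907%) were lower. The higher genes included 6 of 8 plasma cell regulators, all 8 plasma cell markers, 17 of 20 ER folding genes, 17 of 18 genes of ER translocation and glycosylation and 8 of 10 genes of ER-associated degradation. *Prdm1* stood at 122 against 8.94 CPM and at 143 against 12.5 CPM, and *Irf4* at 164 against 25.3 CPM and at 164 against 24.8 CPM. *Slpi*, a secreted protease inhibitor, had the largest fold, at 5490 against 125 CPM and at 2843 against 83.1 CPM. The death gene *Bcl2l11* (BIM) was also higher, at 986 against 121 CPM and at 779 against 87.9 CPM, as were *Bcl2*, the integrin subunit *Itga4* and cyclin D2 (*Ccnd2*, 143 against 40.9 CPM and 209 against 55.9 CPM). Cyclin D3 (*Ccnd3*) was lower, at 103 against 227 CPM and at 35.7 against 194 CPM.

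The lower side held 12 of 25 replication genes, 3 of 28 mitosis genes, 5 of 8 germinal center genes and 1 of 13 B cell identity genes (*Pax5*). *Mcm3*, a subunit of the replicative helicase, stood at 69.6 against 175 CPM and at 67.0 against 226 CPM, while *Rrm2* stood at 119 against 171 CPM and at 292 against 255 CPM. *Bcl6* stood at 47.4 against 109 CPM in the CD45.2+ and at 4.80 against 104 CPM in the CD45.1+ library, and *Pax5* at 116 against 245 CPM and at 18.8 against 218 CPM. Both factors thus lay further below the *Jchain*-low cells in the CD45.1+ library. This comparison leans on what the values are divided by. With CPM over all UMIs, immunoglobulin included, the median gene lay at log2 -0.43 and -0.57 and the split became 210 higher and 464 lower, and with hashtag singlets alone it was 515 higher and 393 lower. The B cell identity genes on the lower side became 10 of 13 with either choice, the replication genes 18 with all UMIs and 17 with singlets, and the mitosis genes 14 and 6 of 28. On the higher side, all UMIs left 5 plasma cell regulators, 7 plasma cell markers, and 15 ER folding, 15 translocation and 7 degradation genes. *Itga4* was then no longer among the higher genes. Depth was also removed by thinning each singlet to 5000 UMIs outside immunoglobulin genes. The mitosis list then had medians of 5 (CD45.2+) and 10 (CD45.1+) UMIs in cycling plasmablasts, 15 and 19 in cycling *Jchain*-low cells and 1 and 1 in non-cycling *Jchain*-high cells. The replication list had medians of 5 and 6.5 UMIs, 22 and 28 UMIs, and 3 and 1 UMIs in the same order. The ER folding list had medians of 128 and 163 UMIs, 11 and 12 UMIs, and 120.5 and 164 UMIs in the same order. Thinning kept 267 of 402 and 188 of 225 singlet cycling plasmablasts, 1478 of 1724 and 530 of 743 cycling *Jchain*-low cells, and 152 of 516 and 128 of 264 non-cycling *Jchain*-high cells, so the last medians describe only the deeper cells of that class.

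Promoters of the 2 programs are shown because cycling plasmablasts held transcripts of both the chaperone genes and the mitotic genes. Windows of 250 bases before to 50 bases after the start come from RefSeq on GRCm38.p6, and 16 of 20 ER folding genes and 24 of 28 mitosis genes had one. Capitals in the first pair mark the ER stress element, CCAAT and CCACG separated by 9 bases, read on either strand. *Hsp90b1* (chr10:86705395-86705694, minus strand) holds it at -212 to -194 and at -107 to -89, and *Creld2* (chr15:88819396-88819695, plus strand) at -126 to -108 from the start.
Hsp90b1: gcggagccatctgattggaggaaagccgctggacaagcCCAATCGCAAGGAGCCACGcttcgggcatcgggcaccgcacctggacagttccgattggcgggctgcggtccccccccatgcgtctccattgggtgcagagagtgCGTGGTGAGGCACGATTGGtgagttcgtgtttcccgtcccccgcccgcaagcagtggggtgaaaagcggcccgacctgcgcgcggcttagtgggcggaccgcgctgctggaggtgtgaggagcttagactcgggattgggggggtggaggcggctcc
Creld2: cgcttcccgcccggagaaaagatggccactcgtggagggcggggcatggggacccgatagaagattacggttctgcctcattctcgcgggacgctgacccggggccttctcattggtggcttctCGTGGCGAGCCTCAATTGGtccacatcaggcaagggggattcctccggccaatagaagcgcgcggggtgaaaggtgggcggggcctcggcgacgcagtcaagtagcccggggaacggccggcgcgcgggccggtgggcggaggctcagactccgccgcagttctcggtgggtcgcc
Capitals in the second pair mark the cell cycle homology region (TTTGAA or TTCGAA) and CCAAT boxes, on either strand. *Ube2c* (chr2:164769679-164769978, plus strand) holds the former at -29 to -24 and *Cdc20* (chr4:118437294-118437593, minus strand) at -18 to -13.
Ube2c: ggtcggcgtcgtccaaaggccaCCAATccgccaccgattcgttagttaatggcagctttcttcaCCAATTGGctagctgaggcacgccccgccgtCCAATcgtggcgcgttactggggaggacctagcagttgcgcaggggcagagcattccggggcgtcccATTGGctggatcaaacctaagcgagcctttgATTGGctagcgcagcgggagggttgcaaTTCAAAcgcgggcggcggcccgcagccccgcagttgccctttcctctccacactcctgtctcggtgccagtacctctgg
Cdc20: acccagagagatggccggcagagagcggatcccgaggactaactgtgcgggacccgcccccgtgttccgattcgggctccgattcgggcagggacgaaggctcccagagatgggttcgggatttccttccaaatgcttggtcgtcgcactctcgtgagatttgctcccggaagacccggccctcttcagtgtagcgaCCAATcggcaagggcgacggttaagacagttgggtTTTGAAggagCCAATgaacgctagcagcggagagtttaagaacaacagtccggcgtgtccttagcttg
The ER stress element was found in 7 of 16 ER folding promoters (43.8%), 1 of 9 degradation, 0 of 13 translocation and 0 of 24 mitosis promoters, against 0.137% of 27025 genes. The cell cycle homology region was found in 18 of 24 mitosis promoters (75.0%), 5 of 22 replication promoters (22.7%) and 1 of 16 ER folding promoters, against 21.7% of all genes. Both groups held CCAAT boxes, which the ER stress element contains: 2 or more lay in 13 of 16 ER folding and 14 of 24 mitosis promoters, against 13.3% of all genes. A match describes letters in this window and not a bound site.

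Levels were also read within the class. Singlet cycling plasmablasts were ordered by their *Mki67* and *Top2a* UMIs, which the rule used, so that a rise of cycle genes over these steps follows from the order and is no finding. The steps were cells with 2 to 3 UMIs (228 CD45.2+ and 88 CD45.1+ cells), 4 to 9 UMIs (80 and 55) and 10 or more (94 and 82). Over these steps the replication list went from 664 to 2012 and 3524 CPM in the CD45.2+ library and from 736 to 1779 and 4060 CPM in the CD45.1+ library. The histone list went from 426 to 1027 and 4222 CPM, and from 449 to 1160 and 3489 CPM. The ER folding list stayed between 23264 and 28314 CPM in CD45.2+ and between 33046 and 36034 CPM in CD45.1+ cells. Immunoglobulin genes and *Jchain* took a smaller share of the UMIs at each step, 40.2%, 31.5% and 27.4% in CD45.2+ and 37.7%, 34.0% and 29.5% in CD45.1+ cells. *Xbp1* stood at 3404, 2993 and 2586 CPM in CD45.2+ cells. *Prdm1* was lowest in the top step, at 207, 170 and 86.2 CPM and at 183, 148 and 120 CPM. The B cell identity list was also lowest there, at 6442, 4851 and 2849 CPM in CD45.2+ and 2394, 1746 and 1175 CPM in CD45.1+ cells. Median depth rose with the steps, from 8609 to 15304 UMIs per CD45.2+ cell and from 10487 to 15121 UMIs per CD45.1+ cell, and its part in these trends was not tested.

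**Figure D2:**
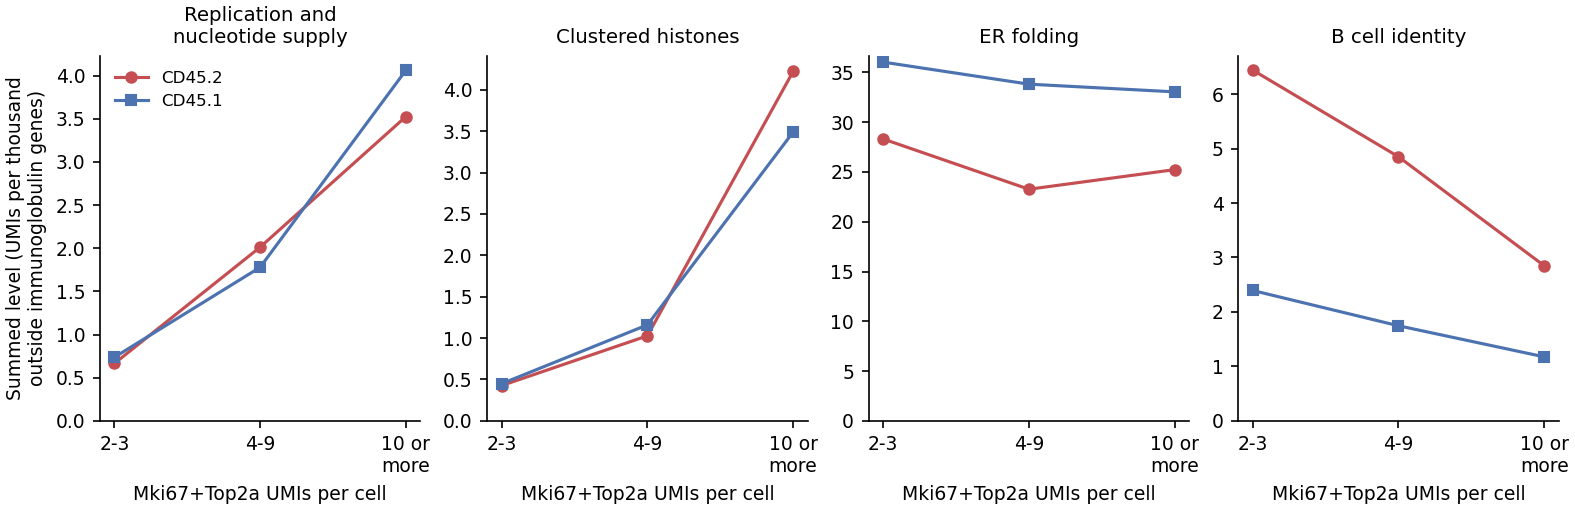
Summed levels of 4 gene lists, in UMIs per 1000 outside immunoglobulin genes, in singlet cycling plasmablasts grouped by their *Mki67* and *Top2a* UMIs. Lines join the pooled values of the CD45.2+ (circles) and CD45.1+ (squares) libraries, without an error. Replication and histone genes climb with the cycle UMIs that order the cells, ER folding stays within 23.3 to 36.0 and B cell identity declines.

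Replication and mitosis UMIs each led in similar shares of the cells. After thinning, 47.2% of 267 CD45.2+ singlets had more replication than mitosis UMIs and 43.4% had more mitosis UMIs, and the shares were 44.7% and 45.7% of 188 CD45.1+ singlets. Replication and histone UMIs went together across thinned cells, with Spearman's rho of 0.62 in the CD45.2+ and 0.70 in the CD45.1+ library. Replication and mitosis UMIs did so too, with rho of 0.60 and 0.62. These correlations describe cells of 1 library each at equal depth.

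Cycling plasmablasts used the MD4 receptor. *Igkv5-43* (chr6:69823355-69823943, minus strand) took 99.3% and 98.9% of the UMIs of kappa variable genes, and it was the top kappa gene in 1451 of 1455 cells with at least 3 such UMIs in the CD45.2+ library and in 529 of 531 in the CD45.1+ library. *Ighv3-8* (chr12:114322327-114322801, minus strand) took 98.3% and 96.0% of heavy variable UMIs and was on top in 1254 of 1259 and 406 of 409 cells. *Ighm*, the constant region of IgM, made up 97.5% and 95.7% of heavy constant UMIs, against 87.3% and 90.8% in cycling *Jchain*-low cells. It was the top constant gene in 1460 of 1467 and 530 of 532 cells, and the other 7 and 2 cells had *Ighg1*, *Ighg2b* or *Ighg2c* on top. Near-identical variable genes can share reads, which the counting method given does not resolve. *Iglv1*, a lambda variable gene, was seen in 89.8% and 94.7% of cycling plasmablasts and in 13.2% and 11.7% of cycling *Jchain*-low cells, but lambda constant genes made up only 2.55% and 1.79% of light constant UMIs. The *Iglv1* shares count cells with a UMI of the gene, and the part of background RNA and of depth in them was not tested.

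The share of cycling plasmablasts among hashtag singlets was compared between the sorts of a mouse and between the groups of mice. Among CD45.2+ cells of the mice labelled WT they were 87 of 2007, 165 of 2607 and 146 of 1672 cells, or 4.33%, 6.33% and 8.73%. Among CD45.1+ cells of the same mice they were 28 of 395, 39 of 519 and 97 of 947 cells, or 7.09%, 7.51% and 10.2%. The share was lower in the CD45.2+ cells of each of the 3 mice, though the ranges overlapped. The mean difference was -1.82 percentage points, with p = 0.25 in a two-sided exact sign-flip permutation test, the smallest p that 3 pairs allow. In a thinned setting, cells under 2000 UMIs were left out, the others were cut to 2000 UMIs and a cycle minimum of 1 UMI applied. *Jchain* was still read at full depth, so this is not the same rule at equal depth. The difference was then -0.73 points and 1 of the 3 mice turned (exact permutation p = 0.5). Without the CD45.1+ cells holding 3 or more *Bcl2* UMIs it was -1.22 points, with mouse 2 at 6.33% against 6.32% (exact permutation p = 0.5). In the mice labelled DOCK8-deficient, CD45.1+ cycling plasmablasts were 10 of 496, 26 of 339 and 25 of 508 cells, or 2.02%, 7.67% and 4.92%. These overlapped the CD45.1+ cells of the WT group, and the difference of -3.41 points gave p = 0.30 in a two-sided exact permutation test, where 3 against 3 mice allow 0.1 at the least. It was -1.99 points without mouse 1 of the DOCK8-deficient group and -1.78 points where a mouse was assigned by a hashtag at least 3 times the next one. With at least 4 cycle UMIs it was -1.26 points (exact permutation p = 0.40) and in the thinned setting -2.13 points (exact permutation p = 0.40). With a *Jchain* minimum of 200 CP10K the ranges no longer overlapped (-3.66 points, exact permutation p = 0.1).

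Among CD45.2+ cells with DOCK8-deficient labels there were few cycling plasmablasts, 1 of 57, 1 of 44 and 2 of 101 cells. Their shares of 1.75%, 2.27% and 1.98% lay below those of the mice labelled WT without overlap, and the difference of -4.46 points gave p = 0.1 in the exact permutation test, the smallest it allows. With 95% exact binomial intervals that reached 9.39%, 12.02% and 6.97%, these shares rest on 4 cells. With a mouse assigned by a hashtag at least 3 times the next one, the same mice held 4, 7 and 13 cycling plasmablasts of 229, 160 and 481 cells, and the means of 2.94% and 6.91% again came without overlap (exact permutation p = 0.1). With at least 4 cycle UMIs the ranges overlapped, at means of 0.585% and 2.92% (exact permutation p = 0.20). Whether the singlets under DOCK8-deficient labels are of 1 origin was not tested. The direction rests on the hashtag labels, under which the sex-linked transcripts went against the sexes in the study's notes. These labels also gave 57, 44 and 101 CD45.2+ singlets in all under DOCK8-deficient and 2007, 2607 and 1672 under WT labels. The gap between the sorts within a mouse was also compared between the groups and did not pass (-1.05 points, exact permutation p = 0.60). Its direction is not settled, since it turned to 0.22 points without mouse 2 of the DOCK8-deficient group and to 0.76 points with a *Jchain* minimum of 200 CP10K. As a share of *Jchain*-high singlets the differences between the groups turned, to 2.04 points in CD45.1+ and 19.7 points in CD45.2+ cells, both with an exact permutation p of 0.80. The sort for HEL binding and CD95 and the magnetic enrichment of B cells can set all of these shares, and intervals cover counting error only.

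**Figure D3:**
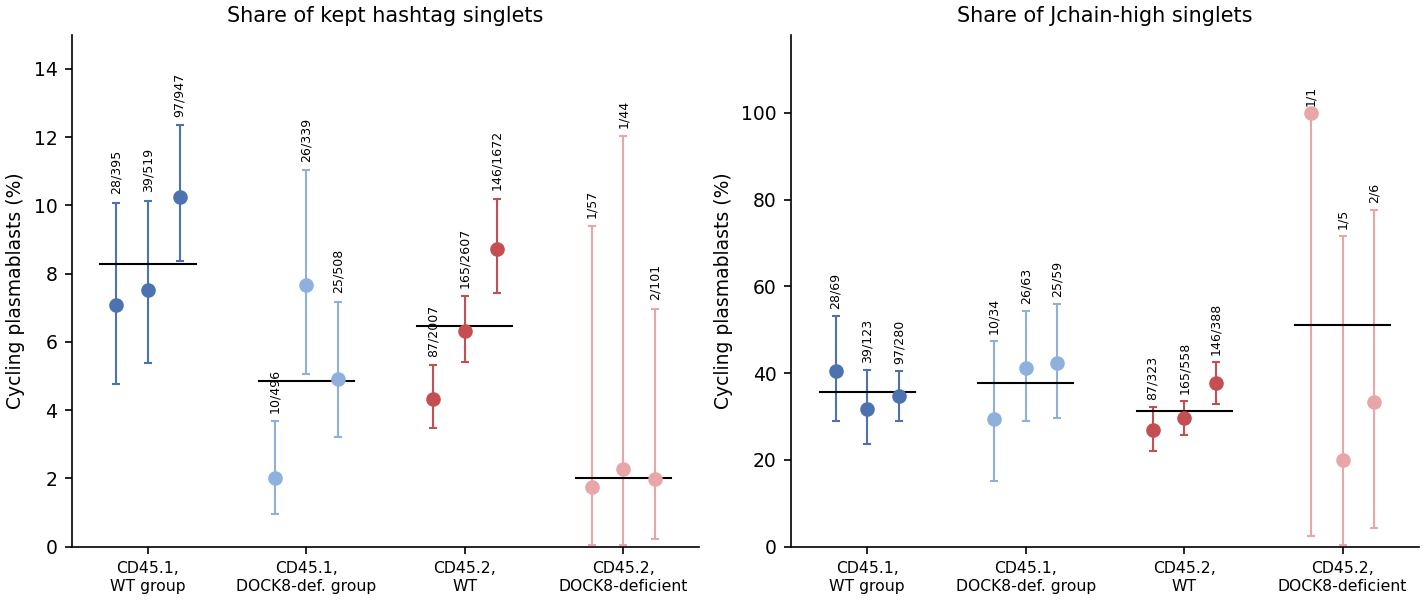
Percent of cycling plasmablasts among hashtag singlets (left) and among *Jchain*-high hashtag singlets (right) in each mouse, with 95% exact binomial intervals, the counts above them and the mean of 3 mice as a black line. The CD45.2+ values with DOCK8-deficient labels rest on 1, 1 and 2 cycling plasmablasts, and on the right their intervals span most of the axis.

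Gene levels were next compared between CD45.2+ and CD45.1+ cycling plasmablasts of the mice labelled WT, on counts summed per mouse and sort (28, 39 and 97 CD45.1+ and 87, 165 and 146 CD45.2+ cells). The quasi-likelihood test of edgeR called 513 of 6382 genes, 320 (5.01%) higher and 193 (3.02%) lower in CD45.2+ cells, with 1449 at an unadjusted p under 0.05. With the mouse as a replicate block it called 790, of which 444 were higher and 346 lower, and 510 of the 513 were among them. Without mouse 1 it called 112 higher and 19 lower, without mouse 2 223 and 49, and without mouse 3 271 and 192, so the lower side shrank more than the higher side when mouse 1 or 2 was left out. DESeq2 called 175 higher and 110 lower. In CD45.2+ cycling plasmablasts 12 of 13 B cell identity and 5 of 8 germinal center genes were called higher. Of the secretory route, 8 of 20 ER folding, 11 of 18 translocation and 1 of 10 degradation genes were called lower. Without mouse 1 these counts were 10, 3, 0, 2 and 0.

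*Bcl2* (chr1:106538178-106714274, minus strand), the survival gene, stood at 132, 266 and 34.9 CPM in CD45.1+ and at 557, 534 and 549 CPM in CD45.2+ cycling plasmablasts, now over all UMIs with TMM scaling. The CD45.2+ values were close together and above all CD45.1+ values, and the log2 fold change was 2.06 (SE 0.376, edgeR adjusted p = 0.00153). BCL2.Tg carries a human cDNA, and UMIs of the transgene and of mouse *Bcl2* cannot be told apart in these counts. Without mouse 1 the edgeR adjusted p was 0.104, and by DESeq2 it was 0.134. Of 8 survival and death genes tested *Bcl2* and *Bcl2a1b* rose, and *Bcl2a1b* missed the threshold without mouse 1 or 3 (edgeR adjusted p = 0.289 and 0.103) and by DESeq2 (adjusted p = 0.0739). With the replicate block this list had 2 genes higher and 1 lower.

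Of 13 B cell identity genes 12 rose in CD45.2+ cycling plasmablasts, with a list median of log2 3.43 beside 0.01 over all genes tested. *Pax5*, which maintains B cell identity, stood at 0, 7.25 and 0 CPM in CD45.1+ and at 76.4, 37.4 and 23.2 CPM in CD45.2+ cells. *Ebf1*, its partner factor, stood at 13.9, 36.3 and 17.4 CPM and at 208, 134 and 89.5 CPM (log2 fold change 2.70, SE 0.336, edgeR adjusted p = 4.5e-05). Neither gene overlapped between the sorts, and mouse 1 had the highest and mouse 3 the lowest CD45.2+ level of both. *Pax5* UMIs were seen in 35.6%, 27.3% and 23.3% of CD45.2+ cycling plasmablasts and in 0%, 5.13% and 0% of CD45.1+ ones, at median depths of 9887, 9575 and 12026 and of 10663, 12149 and 12098 UMIs. Among non-cycling *Jchain*-high cells it was seen in 13.2%, 23.0% and 18.2% on the CD45.2+ side and in 3.45%, 0% and 0% on the CD45.1+ side.

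Germinal center and antigen presentation genes went the same way. Of 8 germinal center genes 5 rose, among them *Rgs13*, *Bcl6*, *S1pr2* and *Basp1*, with a list median of 1.95. *Bcl6* stood at 0, 2.42 and 0.872 CPM and at 25.5, 14.2 and 11.1 CPM. Of 9 genes of MHC class II, *H2-Oa*, *H2-Ob*, *H2-DMa* and *H2-DMb2*, which control peptide loading, rose. Without mouse 1, edgeR called 10 of the 13 B cell identity, 3 of the 8 germinal center and 3 of the 9 MHC class II genes, all higher, and DESeq2 called 11, 3 and 3. *H2-Oa* stood at 3.48, 2.42 and 0 CPM and at 52.0, 39.8 and 29.5 CPM, and it was among the 5 largest changes with *Gimap3*, *Klhl6*, *A230059L01Rik* and *Ncf1*. Of 9 homing genes 4 rose, among them *Klf2*, *Gpr183* and *Cxcr4*, and *Cxcr3* fell. *Klf2* kept its call without each mouse and by DESeq2. In edgeR the list had 2 higher and 0 lower without mouse 1, 3 higher and 0 lower without mouse 2 and 3 higher and 1 lower without mouse 3, and DESeq2 called 2 higher and 0 lower. With the replicate block the homing list had 5 higher and 1 lower. The whole B cell identity list summed to 6609, 5572 and 3075 CPM outside immunoglobulin in CD45.2+ and to 2145, 2711 and 1400 CPM in CD45.1+ cycling plasmablasts of the same mice, with *Cd79a* the most abundant gene in 5 of these 6 sums and *Cd79b* in 1. None of the 13 genes was at 0 in CD45.2+ cells, and 5, 1 and 2 were at 0 in CD45.1+ cells. The part of RNA from other B cells in the 3 lists was not tested. With the replicate block all 13 B cell identity, 7 of 8 germinal center and all 9 MHC class II genes rose.

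The secretory genes lay on the lower side in CD45.2+ cycling plasmablasts. Of 20 ER folding genes 8 fell and none rose, and all 20 had a fold change below 0, with a list median of -0.48. *Hsp90b1* stood at 8222, 7356 and 7402 CPM in CD45.1+ and at 3234, 4611 and 5791 CPM in CD45.2+ cells. The sorts did not overlap and the difference was narrowest in mouse 3 (log2 fold change -0.75, SE 0.160, edgeR adjusted p = 0.00528, and 0.155 without mouse 1). Of 18 translocation genes 11 fell, among them *Ssr2*, which stood at 915, 984 and 1050 CPM and at 394, 529 and 653 CPM. Without mouse 1, edgeR called 0 of the 20 folding and 2 of the 18 translocation genes, and without mouse 2 it called 3 of each. Without mouse 3 it called 12 and 11, and DESeq2 called 8 and 11. Of 10 degradation genes *Edem2* fell. Among plasma cell markers *Mzb1*, *Tent5c* and *Tnfrsf17* fell and *Slpi* rose, from 3175, 1626 and 2385 CPM to 4786, 3415 and 4157 CPM. The calls of *Mzb1*, *Tent5c* and *Tnfrsf17* were lost without mouse 1 and without mouse 2, and that of *Tnfrsf17* also by DESeq2, while *Slpi* kept its call in these settings. None of 8 plasma cell regulators passed the test. With the replicate block 12 ER folding genes (*Creld2* among them), 3 degradation genes, *Sdc1* and the regulator *Atf6* fell. *Prdm1* stood at 79.99, 102 and 99.4 CPM and at 117, 116 and 72.6 CPM, which overlapped, and *Xbp1* at 2608, 2487 and 2312 CPM and at 1734, 1900 and 2105 CPM (edgeR adjusted p = 0.0934). Where a mouse was assigned by a hashtag at least 3 times the next one, *Xbp1* passed the test (log2 fold change -0.59, edgeR adjusted p = 0.00835).

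**Figure D4:**
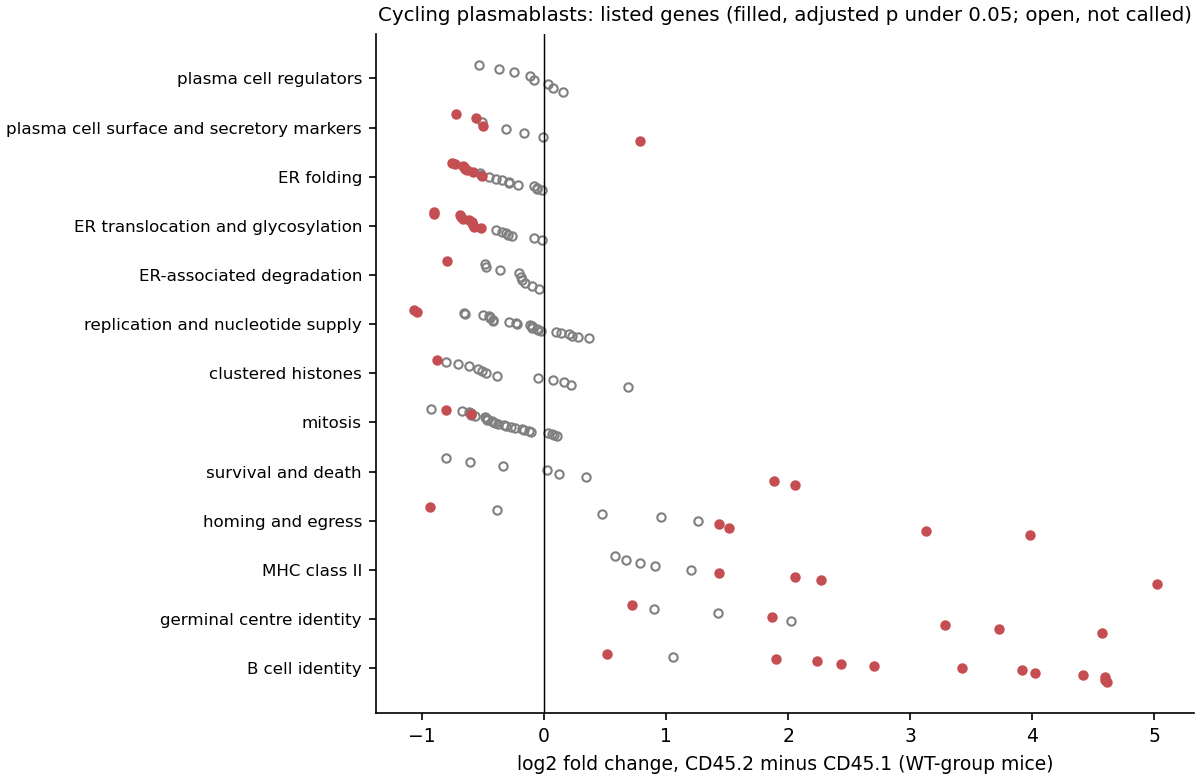
Log2 fold change of CD45.2+ over CD45.1+ cycling plasmablasts of the 3 mice labelled WT for each tested gene of 13 lists, 1 point per gene. Filled points passed edgeR's test at an adjusted p under 0.05 and open points did not. All genes of the 3 ER lists lie left of 0, and all B cell identity, germinal center and MHC class II genes lie right of it.

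Of the cell cycle lists, 3 of 17 cyclins and regulators were called higher and 2 of 25 replication, 2 of 28 mitosis and 1 of 13 histone genes lower, beside 5.01% higher and 3.02% lower overall. *Rrm2* fell, from 205, 172 and 244 CPM in CD45.1+ to 75.4, 84.9 and 142 CPM in CD45.2+ cycling plasmablasts without overlap (log2 fold change -1.04, SE 0.209, edgeR adjusted p = 0.00319, and 0.0949 without mouse 1). *Tyms*, which makes thymidylate, fell with it. The mitosis genes *Ccna2* and *Ube2c* fell, although their values overlapped between the sorts, and the histone gene *Hist1h1a* fell. Cyclin D3 (*Ccnd3*) rose from 13.9, 21.8 and 17.4 CPM to 50.9, 45.11 and 35.8 CPM, as did *Cdk2* and *Foxo1*. These calls depended on the mice: without mouse 1 edgeR called 0 genes of the 4 lists (1128 of all genes were at an unadjusted p under 0.05), without mouse 2 it called *Ccnd3*, *Rrm2* and *Ccna2* alone, and DESeq2 called *Ccnd3*, *Rrm2* and *Tyms* alone. With the replicate block 4 mitosis genes fell, and 1 histone gene rose and 2 fell. The stress genes *Ddit3* and *Cebpb* rose, and of the amino acid and metabolism list *Slc3a2* rose and *Pkm* fell. With the replicate block the amino acid and metabolism list had 2 higher and 2 lower. The call of *Slc3a2* held with each mouse left out and by DESeq2. Those of *Ddit3*, *Cebpb* and *Pkm* were lost without mouse 1 and by DESeq2, that of *Ddit3* also without mouse 2 or 3, that of *Cebpb* without mouse 3 and that of *Pkm* without mouse 2.

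Among the 5 largest decreases, *Ctse*, which encodes cathepsin E, stood at 62.6, 58.0 and 59.3 CPM in CD45.1+ and at 6.11, 13.7 and 6.84 CPM in CD45.2+ cycling plasmablasts. This gap was wide against the spread of either sort, with a log2 fold change of -2.69 (SE 0.282, edgeR adjusted p = 1.18e-05). The others were *Gadd45a*, a growth arrest gene, the immunoglobulin genes *Ighg2b* and *Igkv3-2*, and *Isg15*, induced by interferon. *Ighg2b* stood at 703, 3531 and 457 CPM and at 254, 826 and 166 CPM, so that the sorts overlapped. *Ighm* rose slightly, by a log2 fold change of 0.39 (edgeR adjusted p = 0.0366, and 0.0779 with the replicate block). *Ighv3-8* rose from 459, 476 and 491 CPM to 734, 813 and 624 CPM. *Ctse* kept its call without each mouse and by DESeq2. Without mouse 1 the calls of *Gadd45a*, *Ighg2b*, *Igkv3-2*, *Ighm* and *Ighv3-8* were lost, and by DESeq2 those of *Ighg2b*, *Igkv3-2*, *Isg15* and *Ighm*. The call of *Ighv3-8* was also lost without mouse 2 and that of *Ighm* without mouse 3.

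CD45.1+ cycling plasmablasts were then compared between the mice labelled DOCK8-deficient (10, 26 and 25 cells) and those labelled WT (28, 39 and 97 cells), which asks whether *Dock8* wt/wt plasmablasts depend on their partner cells. The quasi-likelihood test of edgeR called 5 of 3004 genes, 1 (0.0333%) higher and 4 (0.133%) lower in the DOCK8-deficient group, with 290 at an unadjusted p under 0.05, and DESeq2 called 13. Of the 5 calls 4 were kept by DESeq2. None was kept with a *Jchain* minimum of 200 CP10K, where mouse 1 of the DOCK8-deficient group (3 cells) left the fit, though all 5 genes kept their direction. *Hspa8* (chr9:40800984-40810087, plus strand), the constitutive cytosolic chaperone HSC70, stood at 217, 273 and 231 CPM in the WT group and at 408, 552 and 427 CPM in the DOCK8-deficient group. *Herpud1* (chr8:94386438-94395377, plus strand), an ER membrane protein of protein degradation, stood at 509, 467 and 471 CPM and at 214, 186 and 308 CPM. The groups did not overlap in either gene. The log2 fold changes were 0.96 (SE 0.159) and -1.02 (SE 0.172), both with an edgeR adjusted p of 0.00529. Both genes missed the threshold without mouse 1 of the WT group (adjusted p = 0.0528 for both in edgeR).

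The other 3 genes were *Bcl2*, *Bcl2l11* and *Jchain*. *Jchain* is part of the rule, and nothing is read from its call. *Bcl2l11* (chr2:128126038-128162547, plus strand) stood at 461, 631 and 781 CPM in the WT group and at 214, 377 and 347 CPM in the DOCK8-deficient group, without overlap (log2 fold change -0.97, SE 0.190, edgeR adjusted p = 0.0173). It missed the threshold without mouse 2 or 3 of the WT group or mouse 3 of the DOCK8-deficient group (edgeR adjusted p = 0.0554, 0.0864 and 0.0543). *Bcl2* stood at 142, 281 and 36.8 CPM in the WT group and at 12.9, 5.47 and 6.62 CPM in the DOCK8-deficient group (log2 fold change -4.18, SE 0.754, edgeR adjusted p = 0.0098). The lower levels rest on 2 *Bcl2* UMIs in each mouse, and the call was lost without mouse 1 or 2 of the WT group or mouse 3 of the DOCK8-deficient group (edgeR adjusted p = 0.0528, 0.0537 and 0.0543). Apart from *Herpud1*, *Bcl2* and *Bcl2l11*, no listed gene passed the test: the ER folding list had a median of -0.07 with 0 of 20 called, and the replication list had a median of 0.49 with 0 of 21 called, beside -0.01 over all genes. With each mouse left out in turn, the number of calls ran from 2 (without mouse 1 of the WT group) to 18 (without mouse 3 of the WT group).

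*Bcl2* in CD45.1+ cycling plasmablasts came from a few cells. At least 3 *Bcl2* UMIs were held by 3 of 28, 9 of 39 and 6 of 97 cells of the WT group, 18 of 164 in all, and the cell with the most had 20. In the DOCK8-deficient group it was 0 of 10, 0 of 26 and 0 of 25 cells, and a count of 0 over these 61 cells of 3 mice allows a share of up to 4.92% (3 counts, counting error only). Among CD45.2+ cycling plasmablasts of the mice labelled WT, which carry BCL2.Tg, 63 of 87, 125 of 165 and 114 of 146 cells (72.4%, 75.8% and 78.1%) held 3 or more. The CD45.1+ cells thus split into many without and a few with *Bcl2* at the level of the transgenic cells. Non-cycling CD45.1+ *Jchain*-high cells of the WT group held such cells too, 14 of 29, 31 of 61 and 16 of 115, against 0 of 15, 3 of 28 and 1 of 16 in the DOCK8-deficient group, while CD45.1+ cycling *Jchain*-low cells had at most 1 per mouse. When CD45.1+ cells with 3 or more *Bcl2* UMIs were left out, edgeR called 2 genes between the groups, *Hspa8* and *Herpud1*, and *Bcl2l11* had a log2 fold change of -0.79 (edgeR adjusted p = 0.139). The part of CD45.2+ cells or their RNA in the CD45.1+ library was not tested.

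**Figure D5:**
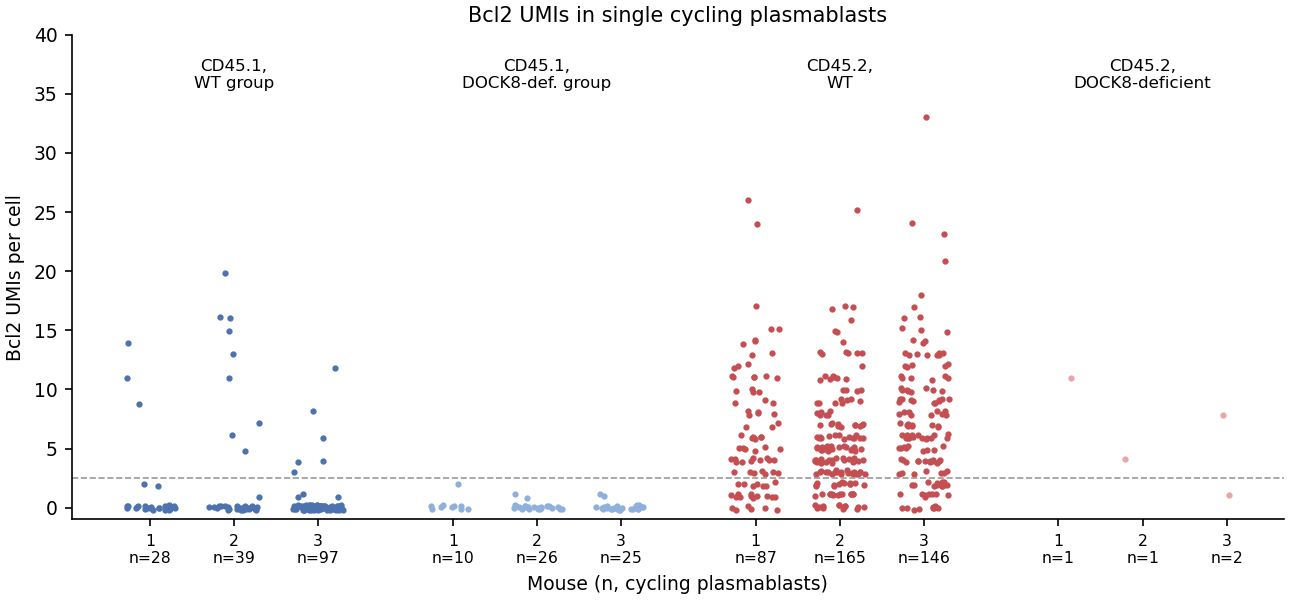
*Bcl2* UMIs in each singlet cycling plasmablast by mouse, with a small vertical and horizontal scatter added to separate the points. The dashed line separates cells with 3 or more UMIs, which are 18 of 164 CD45.1+ cells of the WT group, 0 of 61 CD45.1+ cells of the DOCK8-deficient group and most CD45.2+ cells.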

How the data were processed

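The authors prepared 10x Genomics 3-prime v3.1 libraries, mapped them to the mm10 reference (GRCm38) and counted UMIs with Cell Ranger 5.0.1, and the deposited counts are raw UMI counts per gene and barcode and per hashtag and barcode. The submitters' notes also list Seurat 4.0. Cells were assigned to mice by HTODemux in Seurat 5.3.0 (R 4.3.3) on CLR-normalized hashtag counts at a quantile of 0.99, and no further doublet caller was run. The members and gene lists were chosen with earlier results of these data known. Class levels were compared as CPM outside immunoglobulin genes with a pseudocount of 10. Counts summed per mouse and sort over at least 10 singlet cycling plasmablasts were tested with edgeR 4.0.16 (TMM, filterByExpr, quasi-likelihood test, Benjamini-Hochberg adjustment over all genes at 0.05). DESeq2 1.42.0 was the second tool. Shares were compared by exact permutation tests (scipy 1.17.1). The edgeR tests were also run on simulated counts. These used 1 dispersion for all genes and no mouse effect shared by the sorts, and nothing is drawn from them here. Named genes are the listed genes, the 15 leading genes over all other cells, the 10 largest and smallest folds against each related class, and the 5 largest called changes in each direction. Values of some listed genes are not reported here. The CD45.2+ and CD45.1+ cells with 1 hashtag come from the same animal, which sets the pairing, although deviations of same-mouse sums over 6382 genes correlated by only -0.01, 0.05 and 0.21. Each recipient is 1 replicate, but the 3 mice of a group share each library, so p-values do not cover differences between libraries. Alternatives were the 3-fold hashtag rule (highest hashtag at least 3 times the next), other minima of *Jchain* and cycle UMIs, thinning to 2000 UMIs, no upper limit on genes, other denominators, no filter on low counts, immunoglobulin genes left out, and each mouse left out. Thinning to 2000 UMIs left out cells below that depth and took a cycle minimum of 1 UMI, with *Jchain* at full depth. Gene positions come from GENCODE M21.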

Additional observations from a re-analysis of the deposited data

Results flagged for a closer look

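Most cycling plasmablasts lay outside the comparisons of mice. In the CD45.2+ library 761 were hashtag doublets and 304 had no hashtag counts, and in the CD45.1+ library the numbers were 287 and 20. These cells enter the pooled levels and not the values by mouse. The 18 CD45.1+ cycling plasmablasts of the WT group with 3 or more *Bcl2* UMIs stand out because no such cell was found in the DOCK8-deficient group. In the CD45.2+ library 12 further barcodes met the rest of the rule and held more than 5500 genes. Groups of 3 mice were too small to look for outlying mice.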

How the results depend on the processing

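The number of cycling plasmablasts was 3223 with a minimum of 1 cycle UMI and 1076 with a minimum of 4. The mean differences of the 3 share comparisons (sorts, CD45.1+ groups and CD45.2+ groups) kept their sign among hashtag singlets under every other rule and without each mouse, but not as a share of *Jchain*-high cells: the CD45.1+ group difference became 2.04 points, or 8.12 after thinning (chosen after seeing the data), the CD45.2+ group difference 19.7 or 11.9, and the difference between the sorts 1.45 after thinning. The difference between the groups in the gap between the sorts, tried under other settings after seeing the data, turned to 0.76 points with a *Jchain* minimum of 200 CP10K, and to 17.7 or, after thinning, 3.76 points as a share of *Jchain*-high cells, and ran from -2.35 to 0.22 points with a mouse left out. The cause was not tested. Between the sorts edgeR called 1224 genes with the 3-fold hashtag rule, 790 with the replicate block, 1438 with the replicate block and the 3-fold rule together (chosen after seeing the data), 285 by DESeq2, and 131 to 463 with a mouse left out. All 513 genes kept their direction wherever a setting gave them a value, and the replicate block, which pairs the sorts of a mouse, removed 3 of the 513 calls. Between the CD45.1+ groups there were 22 calls with the 3-fold rule, 13 by DESeq2, 31 without a filter on low counts, 8 without immunoglobulin genes, 0 with a *Jchain* minimum of 200 CP10K (88 at an unadjusted p under 0.05, with 2 mice left in the DOCK8-deficient group), 2 without the CD45.1+ cells holding 3 or more *Bcl2* UMIs, and 2 to 18 with a mouse left out. Against non-cycling *Jchain*-high cells a pseudocount of 1 CPM gave 279 higher and 7 lower genes, and CPM over all UMIs 1 lower. Against cycling *Jchain*-low cells CPM over all UMIs gave 210 higher and 464 lower, a pseudocount of 1 CPM 177 lower and singlets 393 lower. No gene test was run on CD45.2+ cells between the groups, since fewer than 2 mice labelled DOCK8-deficient held 10 cycling plasmablasts under either hashtag rule. Their CD45.2+ values rest on 1, 1 and 2 cells.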
